A study of Mus musculus with 8 samples.

Results

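The 10 genes described here are members of fibroblast growth factor (FGF) signalling, chosen by symbol: the ligands Fgf18, Fgf1, Fgf2 and Fgf5, the receptors Fgfr1, Fgfr2 and Fgfr3, and the feedback inhibitors Spry1, Spry2 and Dusp6. They were 10 of the 24755 genes given a value in either of the tables deposited for the series. The table of hair follicle stem cells (HFSCs) held 9 of the 10 among 23861 genes, and the table of epidermal stem cells (EpdSCs) held 8 of the 10 among 16231. Fgf5, known as the ligand that ends the growth phase of the hair cycle, was listed in neither table, and Fgf18 was listed only for HFSCs.

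FGF ligands bind receptor tyrosine kinases at the cell surface together with heparan sulfate, and the receptors pass the signal through the adaptor FRS2 to the RAS, RAF, MEK and ERK kinases. ERK then switches on transcription factors of the ETS family and also its own brakes, the Sprouty proteins that act on the relay and the phosphatase DUSP6 that acts on ERK itself. In skin, FGF18 made by bulge cells is known for holding follicles at rest, while FGF7 and FGF10 from the dermal papilla are known for starting growth, and the epithelial form of FGFR2 is the receptor for these papilla ligands.

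Sorted dorsal skin cells of mice in telogen, the resting phase, were profiled by bulk RNA-seq in 8 libraries, 2 for each genotype and cell type. HFSCs were sorted as CD34+CD49f+Sca-1- and EpdSCs as CD34-CD49f+Sca-1+. Wild-type (WT) HFSCs came from mice 2 months old, and the Msx2 knockout (Msx2-KO) HFSCs, the WT EpdSCs and the Msx2-KO EpdSCs from mice 6 months old. The Msx2-KO is a germline allele with a neomycin cassette inserted ahead of the second exon, so every cell of these mice carries it. Age cannot be told apart from genotype in HFSCs. The paper's methods name C57BL/6J mice from the Jackson Laboratory as WT controls, so mouse origin may differ by genotype in both cell types. Library names also differ by genotype, YC for WT HFSCs and Ch for Msx2-KO HFSCs, with separate Ch numbers in EpdSCs. Whether these names mark batches is not stated. Nothing in the labels says whether the libraries came from separate mice, so the spread between replicates may be partly technical. In sorted bulk samples, fewer cells of a type and less RNA per cell cannot be told apart.

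The HFSC libraries held 4324511 and 3132974 estimated counts for WT, against 11016659 and 6895606 for Msx2-KO. Mitochondrial ribosomal RNA took 8.94% and 36.3% of the WT counts and 49.4% and 53.2% of the Msx2-KO counts. Genes above 0 numbered 22618 and 19856 in WT, against 11493 and 14344 in Msx2-KO, so the deeper libraries detected fewer genes. In EpdSCs the normalized totals were 16478545 and 14681964 for WT, against 24694442 and 14216483 for Msx2-KO, with 15892, 15967, 12790 and 15206 genes above 0 in the same order. Of those totals, mitochondrial ribosomal RNA took 23.5% and 16.4% in WT but 0.0730% and 6.18% in Msx2-KO.

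Msx2, the homeobox transcription factor disrupted by the cassette, was read in every library, and the directions below are given for the libraries with an Msx2-KO label, called KO-labelled. Its estimated counts were 53 and 7 in WT HFSCs, against 40 and 18 in the KO-labelled pair (log2 fold change -0.20, SE 1.23, adjusted p = 0.975, edgeR quasi-likelihood test with Benjamini-Hochberg adjustment). In EpdSCs its normalized values were 58.5 and 85.4 in WT, against 150 and 22.2 in the KO-labelled pair (log2 fold change -0.27, SE 1.10, adjusted p = 0.865, limma). The genotypes overlapped in both cell types. Values per gene do not show where in Msx2 the reads lie, so they do not check the labels. The paper reported no Msx2 RNA in Msx2-KO skin by in situ hybridization, and the difference from these counts was not tested.

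The gates fitted their markers only in part. To set values of the separately normalized tables side by side, the counts of a gene were divided by the reads of the 12011 protein-coding genes that both tables list, giving RPM (reads per 1000000 of those reads), a shared scale on which no test was made. Lhx2, a bulge transcription factor, lay at 356 to 574 RPM in HFSCs and at 0.289 to 3.79 in EpdSCs, Cd34 was listed only for HFSCs, and Ly6a, which encodes Sca-1, only for EpdSCs. Within HFSCs neither Cd34 nor Itga6 overlapped between genotypes, and their part in the results was not tested. Cd34 was at 1139 and 921 RPM in WT against 444 and 374 in KO-labelled cells, Itga6, which encodes CD49f, at 385 and 400 against 305 and 213, and the 8 HFSC markers summed to 15088 and 13406 against 8659 and 10010. Of the 8, Krt15, Cd34 and Nfatc1 were lower on this scale, and Lhx2, Sox9, Lgr5, Foxc1 and Tbx1 overlapped between genotypes. In the normalized counts of the HFSC fit, Lhx2, Sox9 and Lgr5 also lay wholly below WT. Krt15, the most abundant of the 8 HFSC markers, was high in both cell types, at 5560 to 10902 RPM in HFSCs and 7984 to 14567 in EpdSCs.

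Markers of other cells moved with genotype. In HFSCs the summed level of the 7 suprabasal markers was 396 and 421 RPM in WT against 1883 and 7412 in the KO-labelled libraries, led by Krt10, with Lor at 0 in 3 of the 4 libraries. Sbsn, which made up most of the WT sum, overlapped (259 and 358 against 155 and 405). The 5 sebaceous markers, led by Scd1, summed to 58.5 and 55.9 in WT against 2810 and 2204, with Cidea at 0 in both WT libraries. The 4 cycling markers, led by Mki67, summed to 96.5 and 114 in WT against 1361 and 906. In EpdSCs the suprabasal sum ran the other way, 27167 and 19344 RPM in WT against 1937 and 5917, again led by Krt10, with Flg at 0 in KO replicate 2, and the cycling sum was 349 and 279 against 164 and 127. The cycling markers did not move as one there: Mki67 (251 and 206 against 0.347 and 24.1) and Top2a were lower, while Ccna2 (17.1 and 13.4 against 129 and 50.2) and Birc5 (6.06 and 6.07 against 9.59 and 7.45) were higher. The 3 EpdSC markers summed to 565 and 506 RPM in WT EpdSCs against 18767 and 5336, led by Ly6d, which alone was higher on the shared scale, with Thbs1 lower (69.8 and 136 against 22.5 and 56.2) and Ly6a overlapping, and the 2 listed sebaceous markers of 5, led by Scd1, to 363 and 451 against 1081 and 834, with Pparg, Cidea and Elovl3 not listed. Of the EpdSC markers, Ly6d was also higher in KO-labelled HFSCs (2.05 to 5.57 RPM in WT against 131 to 234), and Thbs1 was lower (700 to 810 against 470 to 533). In HFSCs the 4 inner bulge markers overlapped in sum (396 and 952 RPM in WT against 434 and 286), but the genes did not move together. Krt6a, the most abundant, was at 292 and 697 against 192 and 103, and Krt6b at 35.7 and 180 against 0 in both, while Krt75 (8.05 and 21.8 against 33.9 and 51.4) and Timp3 (60.3 and 52.9 against 209 and 131) were higher. Fibroblast markers, 3 of 6 listed and led by Col1a2, summed to 111 and 135 against 67.7 and 32.04, muscle markers, led by Acta1, to 4.46 and 2.05 against 80.8 and 18.2, and immune markers, led by Cd74, to 20.4 and 10.2 against 50.5 and 27.1. In the muscle and immune lists only Acta1 and Cd74 were higher. Ckm and Des (up to 2.29 and 2.17 RPM in WT) and Ptprc and H2-Aa (up to 7.12 and 2.48) were at 0 in both KO-labelled libraries. In EpdSCs immune markers summed to 63.5 and 5.41 against 0.116 and 0.276, and no fibroblast, melanocyte or muscle marker was listed. The part of these markers in the results below was not tested. The dermal papilla list was near its floor, with Sox2 and Corin not listed in either table, and the 3 other markers summing to 10.5 and 3.41 RPM in WT HFSCs and 1.09 and 0 in KO-labelled cells.

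None of the members passed the test in either cell type. In HFSCs 0 of 9 were called at an adjusted p under 0.05 and a fold change over 2 by edgeR, where 0% of the 14422 genes tested were called, the smallest adjusted p of any gene being 0.143. Before adjustment, at a p under 0.05 and the same fold, the count was also 0 of 9 members, against 17.2% of all genes. DESeq2 called 822 of the 23227 genes in its fit and 0 members. With so small a share of genes called, that 0 is no result about the members. In EpdSCs 0 of 8 were called by limma on log2(value + 1), where 9.35% of the 16231 genes were called, 1.57% higher and 7.78% lower, and 0 of 8 passed the unadjusted threshold, against 35.3% of all genes. With edgeR on counts recovered from the EpdSC values 0 genes were called, against 5132 before adjustment at the same fold. The common dispersion of the HFSC fit was 0.823, a large spread between replicates. Calls depended on the library pair: without KO replicate 1 or 2 the HFSC fit called 5967 and 9272 genes (36.6% and 59.1% of those tested) and the EpdSC fit 6099 and 10376 (37.6% and 63.9%), so a member called in such a fit stood among many.

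By direction, 7 of the 9 HFSC members had a negative log2 fold change and 2 a positive one, with a median of -0.35 beside -0.14 over all genes tested. The genotypes did not overlap for 4 of the 9 members, 1 higher (17.5% of all genes) and 3 lower (33.5% of all genes), near the background of 51.1% of all genes. In EpdSCs 4 of the 8 were positive and 4 negative, with a median of 0.15 beside -0.64 over all genes, and 3 lay wholly above WT (27.8% of all genes) and 2 wholly below (44.5%), beside 72.3% of all genes in either direction. These counts depend on the scaling: on the shared RPM scale 0 of the 8 EpdSC members lay wholly above WT and 3 wholly below (Fgfr1, Fgfr3 and Spry2), and in HFSCs 1 of the 9 lay above and 2 below, since Fgfr3 then overlapped. The share over all genes was not worked out on the shared scale, so its counts have no background and show only the dependence on scaling.

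**Figure D1:**
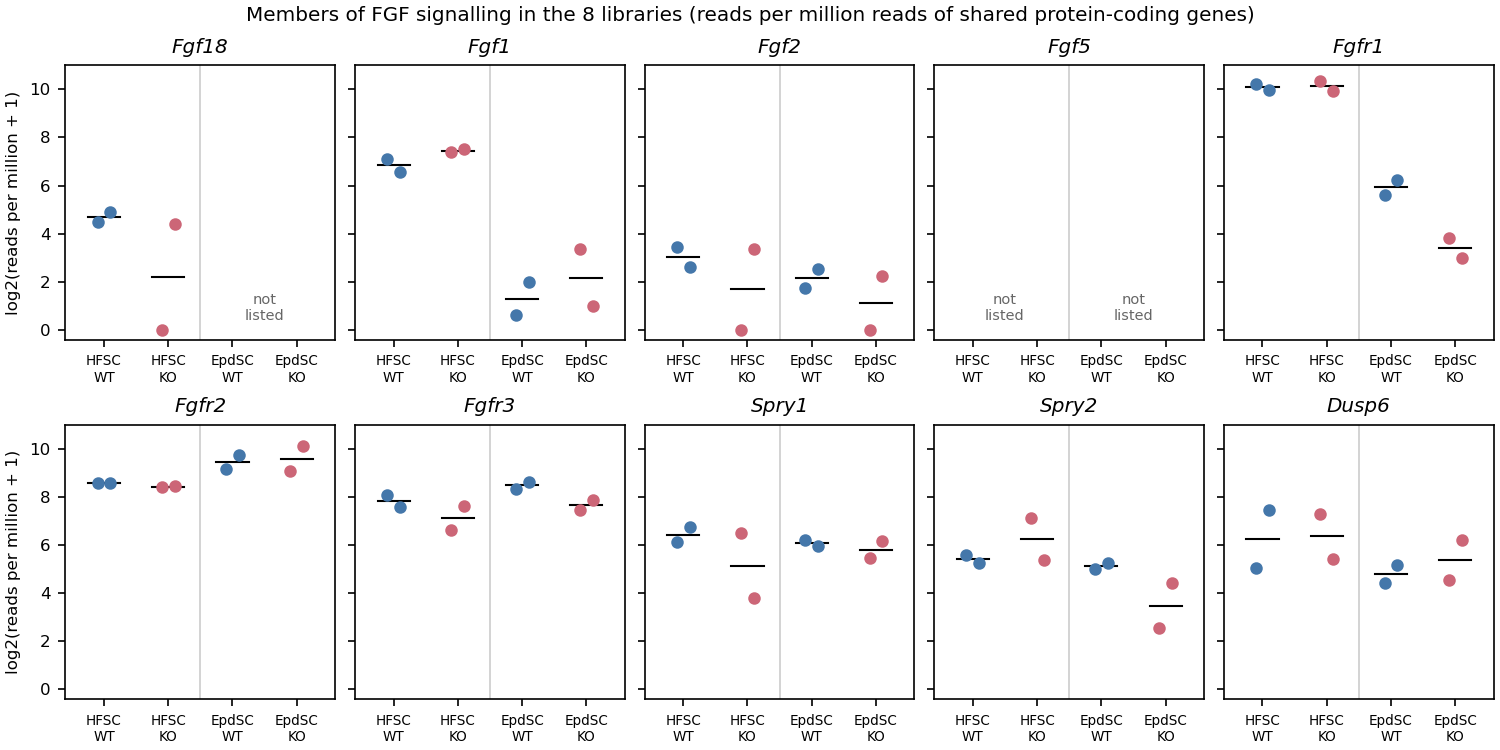
Level of each member in the 8 libraries, as log2(RPM + 1) on the shared scale. Points are libraries, short lines the mean of 2 libraries, and a member without a row in a table is marked as not listed; Fgfr1 and Fgf1 sit far higher in all HFSC libraries than in EpdSCs, and Fgf18 is at 0 in 1 of the 2 HFSC KO-labelled libraries.

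Fgf18, the bulge ligand of the resting follicle, spans chromosome 11 from 33117430 to 33147400 on the minus strand of GRCm38 and shares no exon bases with another annotated gene. Its estimated counts were 69 and 43 in WT HFSCs and 0 and 37 in the KO-labelled libraries. Normalized to a common library size, these were 56.4 and 85.1 in WT and 0 and 48.1 in KO-labelled cells. Both WT libraries lay above both KO-labelled libraries, but KO replicate 2 lay close to WT replicate 1 and the wide difference came from replicate 1 alone. The log2 fold change was -1.56 (SE 2.32, adjusted p = 0.867, edgeR). Without KO replicate 1 it was -0.56, and without KO replicate 2 Fgf18 was called lower (adjusted p = 0.00331, edgeR), with the group then resting on the library at 0.

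The 0 of Fgf18 stood among many in that library. Of 1894 genes whose WT mean lay within 75% to 125% of that of Fgf18, 396 (20.9%) were at 0 in KO replicate 1 and 214 (11.3%) in KO replicate 2. The window was set on WT means, which keeps zeros out of WT, so no difference between genotypes is read from these counts. A count of 0 in replicate 1 allows a normalized value of up to 2.00, the worth of 3 counts there, for counting error only. Over the 4 HFSC libraries the genes whose centred log2 profile was nearest to that of Fgf18 were 1810062O18Rik (root mean square difference 0.279), Atg2a (0.289), Crnkl1 (0.322), Smpd4 (0.344) and Gnai1 (0.349), of 5884 genes compared. All 5 had their low value in KO replicate 1, which follows from the choice by likeness, with normalized counts there of 0.667, 0.667, 1.33, 1.33 and 3.33.

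Fgf1, a ligand that binds all the FGF receptors, lay close together in the HFSC libraries. Its normalized counts there were 363 and 275 in WT and 410 and 425 in the KO-labelled libraries, so that both of the latter were higher. The log2 fold change was 0.39 (SE 0.28, adjusted p = 0.630, edgeR), and it turned to -0.52 when scaled by library totals, which shifted the median of all genes by -0.85. In EpdSCs Fgf1 was 5.42 and 29.4 in WT and 204 and 12.1 in KO-labelled cells, overlapping groups in which 1 library was far above the rest (log2 fold change 1.89, SE 1.71, adjusted p = 0.451, limma). Without that library, KO replicate 1, the log2 fold change was -0.089.

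Fgf2, a heparan-binding ligand that leaves the cell without a signal peptide, spans chromosome 3 from 37348346 to 37410108 on the plus strand and was low in every library. It gave 25.9 and 15.1 normalized counts in WT HFSCs and 0 and 22.1 in KO-labelled cells (log2 fold change -0.94, SE 2.25, adjusted p = 0.925, edgeR). The EpdSC values had the same form, 23.7 and 48.6 in WT and 0 and 45.8 in KO-labelled cells (log2 fold change -2.36, SE 2.09, adjusted p = 0.443, limma). In both cell types KO replicate 1 was at 0 and replicate 2 lay within the WT range. The EpdSC log2 fold change depended on the pseudocount, at -3.99 with 0.1 and -0.91 with 10, and was -0.37 with edgeR on recovered counts. Without replicate 1 the log2 fold change was 0.0074 in HFSCs and 0.42 in EpdSCs, and without replicate 2 the gene was called lower in both (adjusted p = 0.0101, edgeR, and 0.0212, limma). Fgf2 shares 640 exon bases with the antisense gene Nudt6, and it is not stated whether counting used strand.

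The ligands were set side by side across cell types on the shared scale, with no test, since each table was normalized on its own and the WT ages differed. Fgf1 was at 137 and 94.8 RPM in WT HFSCs and 0.541 and 2.94 in WT EpdSCs, so that the mean was 66.7-fold higher in HFSCs, and 34.0-fold higher among the KO-labelled libraries. The latter stood at 168 and 181 in HFSCs and 9.25 and 0.994 in EpdSCs. The size of both folds depends on the EpdSC library. Fgf2 was at 9.80 and 5.20 in WT HFSCs and 2.37 and 4.86 in WT EpdSCs, 2.07-fold higher in HFSCs. Set per kb of exon within WT HFSCs, Fgf1 at 25.2 and 17.4 RPM per kb and Fgf18 at 18.0 and 24.7 overlapped, and Fgf2 was lower than both, at 1.45 and 0.766.

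Among the receptors, Fgfr1, whose product binds a broad set of ligands, spans chromosome 8 from 25513654 to 25575718 on the plus strand and shares 164 exon bases with an antisense gene, Gm16159. In HFSCs it gave 3104 and 2912 normalized counts in WT and 3177 and 2274 in the KO-labelled libraries, and the groups overlapped (log2 fold change -0.14, SE 0.28, adjusted p = 0.910, edgeR). The sign turned to 0.058 when scaled by protein-coding totals and to 0.073 without KO replicate 2. In EpdSCs Fgfr1 was 486 and 733 in WT and 293 and 85.6 in KO-labelled cells, both below WT, with a log2 fold change of -1.91 (SE 0.81, adjusted p = 0.185, limma). It was called lower without KO replicate 1 (log2 fold change -2.79, adjusted p = 0.0426, limma) and was at -1.03 without replicate 2.

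Fgfr2, the main keratinocyte receptor, lay below WT in HFSCs and, as deposited, above WT in EpdSCs. In HFSCs it gave 989 and 1096 normalized counts in WT and 822 and 818 in KO-labelled cells, all close together (log2 fold change -0.35, SE 0.21, adjusted p = 0.546, edgeR). In EpdSCs it gave 5613 and 8542 in WT and 11746 and 13386 in KO-labelled cells (log2 fold change 0.86, SE 0.51, adjusted p = 0.288, limma). Neither passed the test. The EpdSC groups overlapped on the shared scale (560 and 854 RPM in WT, 533 and 1097 in KO-labelled cells), and the EpdSC value was 0.14 when scaled by protein-coding totals, under which the median of all EpdSC genes moved by -0.70. The annotated gene runs on chromosome 7 from 130162451 to 133123350 and shares 314 exon bases with Ctbp2 on the same strand, whose own normalized counts in HFSCs were 119 and 117 in WT and 68.0 and 63.6 in KO-labelled cells, and in EpdSCs 168 and 138 in WT and 755 and 168.5 in KO-labelled cells.

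Fgfr3, a receptor known for restraining growth of bone, spans chromosome 5 from 33721674 to 33737068 on the plus strand. Its normalized counts in HFSCs were 703 and 556 in WT and 239 and 456 in KO-labelled cells, groups that did not overlap (log2 fold change -0.86, SE 0.41, adjusted p = 0.411, edgeR). Without KO replicate 2 it was called lower (log2 fold change -1.41, adjusted p = 0.0115, edgeR), and without replicate 1 it was at -0.49. In EpdSCs it was 3226 and 3918 in WT and 3829 and 2834 in KO-labelled cells, overlapping groups (log2 fold change -0.11, SE 0.49, adjusted p = 0.881, limma). The value was -0.82 with protein-coding totals and -0.65 without mitochondrial and ribosomal RNA genes, with both KO-labelled libraries (174 and 232 RPM) below both WT libraries (322 and 392 RPM) on the shared scale, and the sign turned to 0.030 without WT replicate 2 and to 0.11 without KO replicate 2. An antisense gene, G630022F23Rik, overlaps 998 exon bases of Fgfr3.

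The receptors had a different order in the pair of cell types, described per kb of exon on the shared scale and without a test. In WT HFSCs Fgfr1 was at 119 and 102 RPM per kb, above Fgfr2 at 36.3 and 36.6 and Fgfr3 at 37.2 and 26.8, which overlapped. In WT EpdSCs Fgfr2 was at 54.3 and 82.7, Fgfr3 at 45.0 and 54.7, and Fgfr1 at 4.92 and 7.42. Fgfr1 made up 61.6% to 74.0% of the summed level of the 3 receptors in the 4 HFSC libraries but 0.510% to 5.13% in the 4 EpdSC libraries, where Fgfr2 made up 52.1% to 76.2%. By gene, the mean of WT Fgfr1 was 17.9-fold higher in HFSCs, and those of Fgfr2 and Fgfr3 were 1.88-fold and 1.56-fold higher in EpdSCs.

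**Figure D2:**
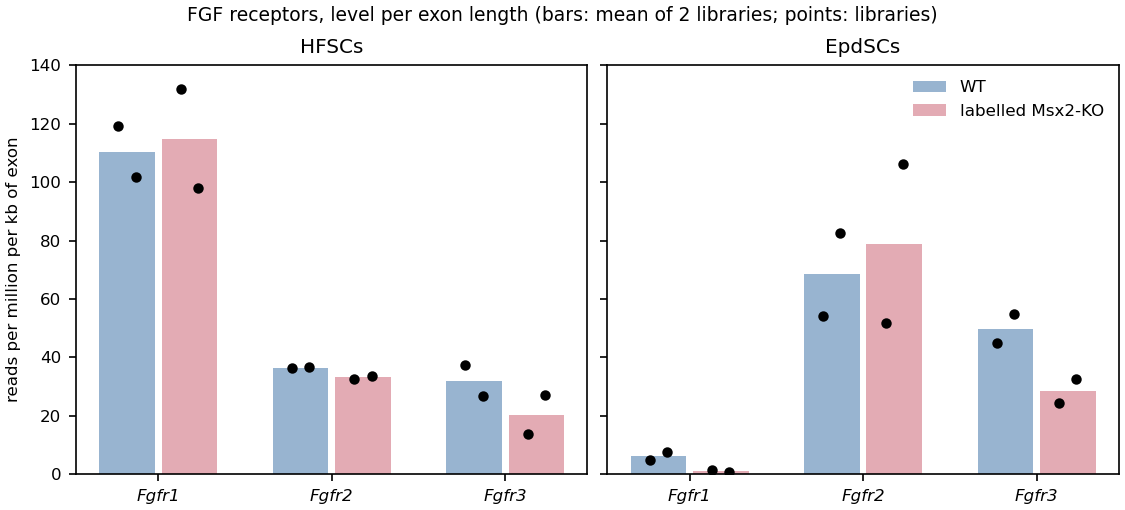
Level of the 3 receptors in RPM per kb of exon on the shared scale, HFSCs left and EpdSCs right. Bars start at 0 and give the mean of 2 libraries and points the libraries; Fgfr1 leads in every HFSC library and is lowest in every EpdSC library.

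The feedback inhibitors are usually read as a gauge of ERK activity, and in HFSCs they spread widely between replicates of a group. Spry1 (chromosome 3 from 37639947 to 37644598, with 710 exon bases under the antisense gene Gm42922) gave 180 and 306 normalized counts in WT HFSCs and 217.9 and 29.9 in the KO-labelled libraries (log2 fold change -0.96, SE 1.02, adjusted p = 0.781, edgeR). Spry2 (chromosome 14 from 105891947 to 105896819, minus strand) gave 123 and 107 in WT and 337 and 94.8 in KO-labelled cells (log2 fold change 0.91, SE 0.73, adjusted p = 0.677, edgeR). Dusp6 (chromosome 10 from 99263231 to 99267489, plus strand) gave 84.1 and 506 in WT and 377 and 98.7 in KO-labelled cells (log2 fold change -0.30, SE 1.10, adjusted p = 0.956, edgeR).

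All 3 overlapped between genotypes, and in all 3 KO replicate 1 was above replicate 2, by 7.30-fold for Spry1, 3.55-fold for Spry2 and 3.82-fold for Dusp6. Within WT the replicates differed by 1.70-fold, 1.16-fold and 6.02-fold, the higher library being replicate 2 for Spry1 and Dusp6 and replicate 1 for Spry2. Each call then hung on the library kept. Spry1 was called lower without KO replicate 1 (log2 fold change -3.03, adjusted p = 0.0139, edgeR) and was at -0.15 without replicate 2, while Spry2 was called higher without replicate 2 (log2 fold change 1.53, adjusted p = 0.00593, edgeR) and turned to -0.31 without replicate 1. Dusp6 turned to 1.40 without WT replicate 2 and to 0.37 without KO replicate 2.

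In EpdSCs the replicates of these genes differed by 1.07-fold to 2.33-fold in the deposited values. Spry1 was 737 and 615 in WT and 932 and 869 in KO-labelled cells (log2 fold change 0.42, SE 0.47, adjusted p = 0.538, limma), but its direction turned to -0.29 when scaled by protein-coding totals and to -0.12 when mitochondrial and ribosomal RNA genes were left out. Spry2 was 311 and 366 in WT and 106 and 246 in KO-labelled cells (log2 fold change -1.06, SE 0.64, adjusted p = 0.291, limma), and was called lower without KO replicate 2 (log2 fold change -1.67, adjusted p = 0.0249, limma) and was at -0.45 without replicate 1. Dusp6 was 207 and 353 in WT and 484 and 875.5 in KO-labelled cells (log2 fold change 1.27, SE 0.62, adjusted p = 0.221, limma), and its log2 fold change was 0.56 with protein-coding totals and 0.73 without mitochondrial and ribosomal RNA genes. None of the 3 passed the test. The genotypes did not overlap in the deposited values, but on the shared scale only Spry2 stayed apart.

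On the shared scale the WT mean of Spry1 was 87.0 RPM in HFSCs and 67.6 in EpdSCs, with overlapping libraries. That of Spry2 was 41.8 and 33.8, and its mean in KO-labelled cells was 89.1 and 12.5, 7.14-fold higher in HFSCs, without overlap between cell types in either genotype. The KO-labelled libraries behind that fold were uneven, at 138 and 40.3 in HFSCs and 4.80 and 20.2 in EpdSCs, so its size depends on the library. For Dusp6 the WT mean was 103 and 28.0, also with overlapping libraries, since the WT HFSC replicates stood at 31.9 and 175.

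The promoters of the feedback inhibitors are shown because these 3 genes differed in the same direction between the KO-labelled HFSC replicates and are textbook ERK targets. Each is the 250 bases before the annotated start, from RefSeq on GRCm38.p6, written 5′ to 3′ on the strand of the gene. Capitals mark CGGAA, a form of the ETS site, or its reverse complement TTCCG. Spry1 lies on the plus strand (chr3:37639697-37639946), Spry2 on the minus strand (chr14:105896820-105897069) and Dusp6 on the plus strand (chr10:99262981-99263230).
Spry1: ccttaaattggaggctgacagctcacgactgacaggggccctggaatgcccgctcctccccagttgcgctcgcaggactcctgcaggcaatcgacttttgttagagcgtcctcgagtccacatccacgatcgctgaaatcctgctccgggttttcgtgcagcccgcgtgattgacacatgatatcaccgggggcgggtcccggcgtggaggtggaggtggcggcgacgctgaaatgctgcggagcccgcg
Spry2: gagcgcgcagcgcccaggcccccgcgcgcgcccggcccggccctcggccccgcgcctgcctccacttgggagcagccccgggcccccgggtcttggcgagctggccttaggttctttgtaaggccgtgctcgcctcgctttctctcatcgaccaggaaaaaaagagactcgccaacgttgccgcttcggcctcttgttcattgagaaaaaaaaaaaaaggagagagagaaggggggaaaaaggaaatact
Dusp6: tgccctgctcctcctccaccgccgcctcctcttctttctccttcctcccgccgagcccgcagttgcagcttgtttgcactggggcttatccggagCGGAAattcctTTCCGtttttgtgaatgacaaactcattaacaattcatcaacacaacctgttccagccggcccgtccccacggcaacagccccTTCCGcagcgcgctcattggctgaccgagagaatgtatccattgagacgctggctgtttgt

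The Dusp6 promoter held 3 matches, beginning at positions -155, -144 and -61 from the start, where the base before the start is -1, and those of Spry1 and Spry2 held 0. Of 32851 mouse promoters of this length, 25.2% held at least 1 match on either strand. The shorter letters GGAA, which were not counted, occur in the printed promoters of Spry1 and Spry2. Of the 10 members 8 had a promoter in the reference table, and CGGAA was otherwise found only once, in that of Fgf5. The table held none for Fgf1 and Fgfr1. A match is a description of letters and not a bound site, and no match says only that these letters are not in this window.

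**Figure D3:**
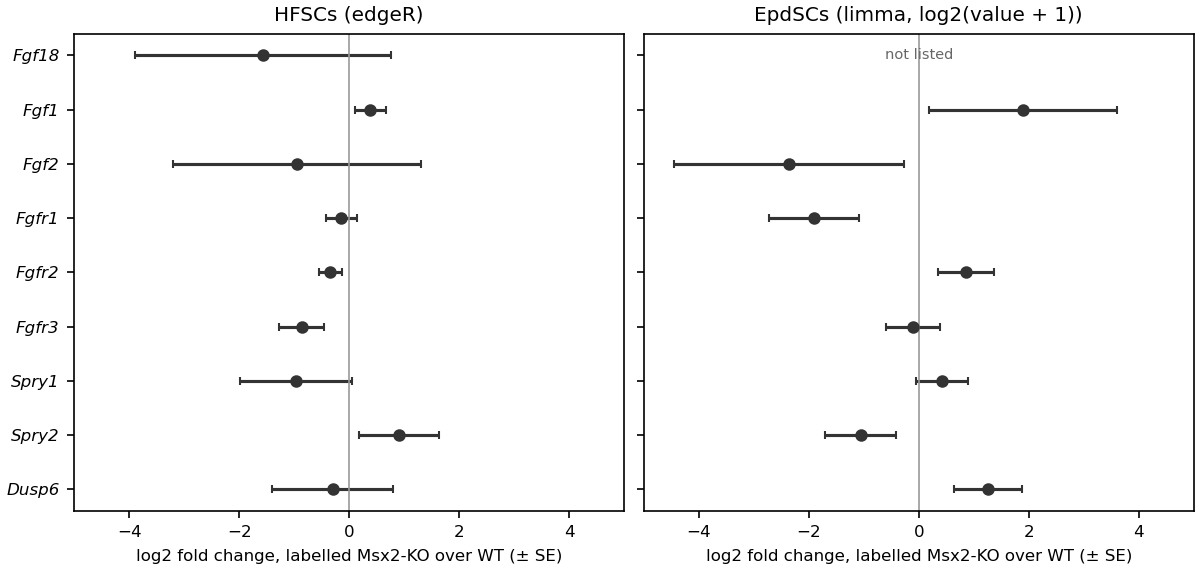
Log2 fold change of each listed member, KO-labelled libraries over WT, in HFSCs (left, edgeR) and EpdSCs (right, limma on log2(value + 1)), with bars of 1 SE. No member was called, and the widest bars belong to Fgf18 and Fgf2, each at 0 in KO replicate 1 wherever it was listed.

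Of 71 further genes of the pathway, arranged by role, 61 were listed and 48 tested in HFSCs, with none called. They divided into 19 positive and 29 negative log2 fold changes with a median of -0.32, beside 7870 negative of the 14422 genes tested and their median of -0.14. Before adjustment, at the same fold, 5 of the 48 passed, beside 17.2% of all genes. In EpdSCs 48 were listed and tested, 24 positive and 24 negative with a median of 0.01, beside -0.64 over all genes. Of the 48, 1 was called higher and 2 lower, beside 1.57% and 7.78% of all genes, and 12 passed before adjustment, beside 35.3% of all genes.

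Among other ligands, Fgf7 was listed in neither table, and Fgf10 had 5 and 2 estimated counts in WT HFSCs and 0 in both KO-labelled libraries, too few to be tested. Fgf22, a ligand of the epidermis, fell in EpdSCs from 22.7 and 41.7 in WT to a listed value of 0 in both KO-labelled libraries (adjusted p = 0.0281, limma). Fgf11, an FGF homologous factor that stays in the cell and does not act through the receptors, was 99.6 and 111 in WT EpdSCs and 0 and 2.696 in KO-labelled cells (log2 fold change -5.79, SE 0.82, adjusted p = 0.0387, limma). Without either WT library the fit called 0 of 16231 genes, so no call could hold there, and the log2 fold changes of Fgf11 were then -5.86 and -5.71. With edgeR on counts recovered from the normalized values, which also called 0 genes, the adjusted p was 0.0721 for Fgf22 and 0.0859 for Fgf11. The calls were also lost with a change of pseudocount, for Fgf22 at 10 (adjusted p = 0.0564, limma) and for Fgf11 at 0.1 (adjusted p = 0.120, limma). The fold of Fgf11 depends on the pseudocount, since 1 library was at 0.

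The ligand carriers held the largest positive values, of which only Sdc1 in EpdSCs passed the test. The list did not move as one. In HFSCs 4 of the 10 tested were positive and 6 negative, with a median of -0.52 beside -0.14 over all genes. In EpdSCs 6 of the 11 tested were positive and 5 negative, with a median of 0.32 beside -0.64 over all genes. Fgfbp1, a secreted protein that frees FGF ligands from the matrix, was 26.1 and 31.6 normalized counts in WT HFSCs and 1046 and 277 in the KO-labelled libraries, with both far above WT. Its log2 fold change was 4.52 (SE 0.82, adjusted p = 0.143, edgeR), and over all alternatives the adjusted p ran from 2.52e-06 with DESeq2 to 0.212. It was called with any 1 library left out, at log2 fold changes of 3.26 to 5.20. In EpdSCs Fgfbp1 was 1722 and 1451 in WT and 25967 and 5567 in KO-labelled cells (log2 fold change 2.93, SE 0.93, adjusted p = 0.123, limma), and was called without either KO-labelled library (log2 fold changes 1.82 and 4.04, adjusted p = 0.0387 and 0.00976, limma).

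Sdc1, a heparan sulfate proteoglycan of the keratinocyte surface, was called higher in EpdSCs, at 8054 and 7906 in WT and 272559 and 116512 in KO-labelled cells (log2 fold change 4.48, SE 0.64, adjusted p = 0.0387, limma). The call was lost at a pseudocount of 0.1 (adjusted p = 0.0553, limma) and with edgeR on recovered counts (adjusted p = 0.0632), while the log2 fold change stayed between 3.77 and 5.09 over all alternatives. In HFSCs Sdc1 was 1326 and 1522 in WT and 1329 and 758.5 in KO-labelled cells, overlapping groups (log2 fold change -0.45, SE 0.35, adjusted p = 0.671, edgeR).

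The relay from receptor to ERK held no call among 19 genes in either cell type. In HFSCs 15 of the 19 were negative with a median of -0.39, beside 7870 of 14422 genes and -0.14. Frs2, the adaptor that docks on the receptors, was 297 and 237 in WT and 80.0 and 133 in KO-labelled cells (log2 fold change -1.33, SE 0.45, adjusted p = 0.241, edgeR). It was called lower without either KO-labelled library (log2 fold changes -1.04 and -1.75) but not without either WT library (-1.18 and -1.57). Sos2, an exchange factor for RAS, was 208 and 253 in WT and 0 and 70.1 in KO-labelled cells (log2 fold change -2.74, SE 2.08, adjusted p = 0.654, edgeR). Sos2 was called lower without KO replicate 1 (log2 fold change -1.74) and without replicate 2 (-10.96, where the library left is at 0). Without WT replicate 1 or 2 it was not called, at -2.86 and -2.65.

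In EpdSCs 10 of the 19 relay genes were positive and 9 negative. The paralogous kinases of the MEK step lay on opposite sides of WT, a difference that was not tested and of which neither side passed the test. Map2k1 was 320 and 341 in WT and 3425 and 1560 in KO-labelled cells (log2 fold change 2.80, SE 0.62, adjusted p = 0.0731, limma), while its paralogue Map2k2 was 1398 and 1251 in WT and 50.9 and 217.7 in KO-labelled cells (log2 fold change -3.63, SE 0.88, adjusted p = 0.0840, limma). Mapk3, an ERK kinase gene, was 882 and 641 in WT and 12.7 and 301 in KO-labelled cells (log2 fold change -3.55, SE 1.69, adjusted p = 0.213, limma). Map2k1 and Map2k2 were called without either KO-labelled library, at log2 fold changes of 2.24 and 3.37 and of -2.60 and -4.67, and Mapk3 without KO replicate 2 only (log2 fold change -5.78, against -1.32 without replicate 1). Map2k1 was also called at a pseudocount of 10 (adjusted p = 0.0487, limma) and with a prior spread that follows the mean (adjusted p = 0.0440, limma).

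Further readouts of the pathway were mixed in HFSCs. Etv5, an ETS factor induced by FGF signals, was 52.2 and 52.1 in WT HFSCs and 281 and 64.9 in KO-labelled cells (log2 fold change 1.74, SE 0.89, adjusted p = 0.451, edgeR), and was called higher without KO replicate 2 (log2 fold change 2.43, adjusted p = 0.00274, edgeR) and was at 0.30 without replicate 1. As with the feedback inhibitors, KO replicate 1 was the higher of its pair, by 4.33-fold. Its relative Etv4 was low, at 45.7 and 19.8 in WT and 32.7 and 9.09 in KO-labelled cells. Myc, a growth regulator, was 159 and 202 in WT and 500 and 369 in KO-labelled cells (log2 fold change 1.27, SE 0.33, adjusted p = 0.145, edgeR). It was called higher without either KO-labelled library (log2 fold changes 1.01 and 1.47) but not without either WT library (1.08 and 1.35). Dusp5, an ERK phosphatase, was 3.27 and 23.7 in WT and 17.3 and 44.2 in KO-labelled cells, and Spry4 had 10 and 2 estimated counts in WT and 0 in both KO-labelled libraries and was not tested.

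In EpdSCs 4 of the 6 transcription targets tested were positive, beside 6536 of 16231 genes, and none was called. Etv5 was 285 and 342 in WT and 3543 and 1336 in KO-labelled cells (log2 fold change 2.80, SE 0.69, adjusted p = 0.0864, limma). Etv4 was 127 and 44.6 in WT and 22.9 and 125.4 in KO-labelled cells, overlapping groups. Dusp5 was 186 and 165 in WT and 261 and 357 in KO-labelled cells (log2 fold change 0.80, SE 0.49, adjusted p = 0.298, limma). On the shared scale the groups of Dusp5 overlapped, and those of Etv5 did not. The table listed no values for Spry4.

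**Figure D4:**
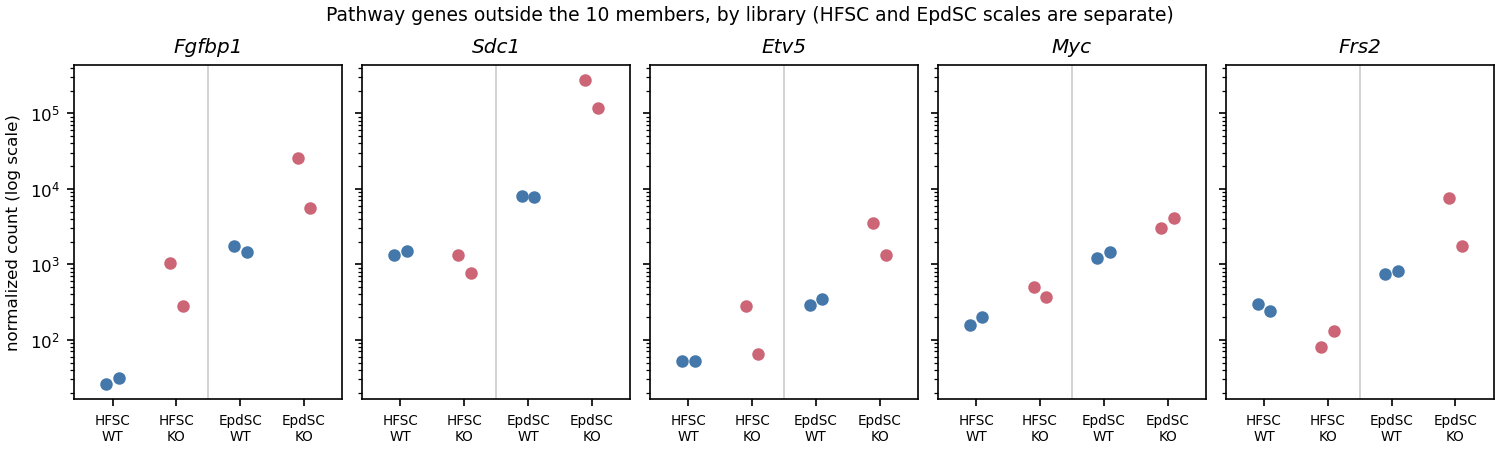
Normalized counts on a log axis for Fgfbp1, Sdc1, Etv5, Myc and Frs2 in each library, blue for WT and red for KO-labelled libraries; the scales of HFSCs and EpdSCs are separate. Both Fgfbp1 points KO-labelled lie above both WT points in each cell type, and both Sdc1 points do so in EpdSCs; differences between cell types were not tested.

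**Figure D5:**
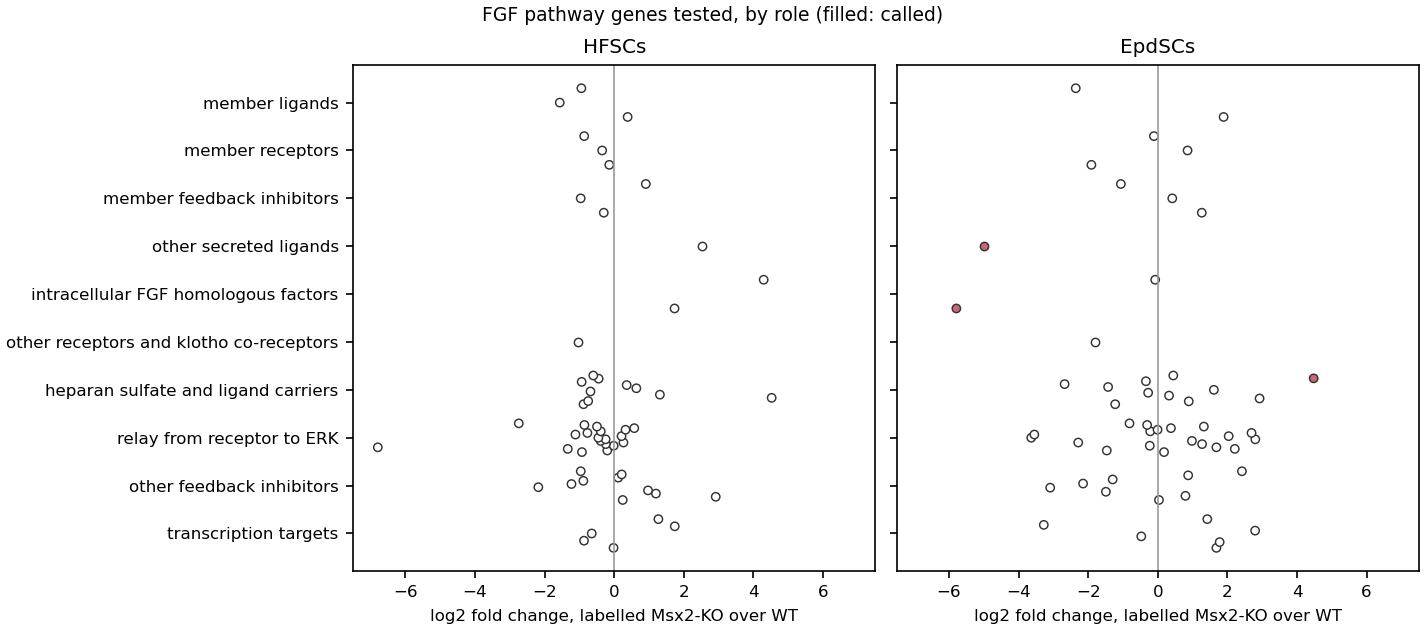
Log2 fold change, KO-labelled libraries over WT, of every pathway gene tested, grouped by role, with filled points for the 3 genes called, all in EpdSCs. Points of genes at 0 in a library, among them Frs3 in HFSCs and Fgf22 and Fgf11 in EpdSCs, sit where the prior count or pseudocount puts them.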

How the data were processed

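RNA was made into stranded total RNA libraries. Per the methods and the submitters' processing notes, reads were aligned to GRCm38/mm10 with STAR (2.7.3a) in Partek Flow and assigned to GENCODE genes; use of strand in counting is not given in the sources used here. The deposited HFSC values are estimated counts, not normalized, in which a read matching several genes is split. The deposited EpdSC values are a signal, estimated counts that the authors had scaled by 1 factor for each library and had cleared of low genes by a rule not given here. A single count was worth 1.08 and 0.948 in the WT libraries, against 1.27 and 0.674 for Msx2-KO. Of EpdSC values under 1000, 73.3% to 82.7% came out whole within 0.02 once divided by that worth, and of HFSC values 69.1% to 87.1% within 0.001. Limma was the main EpdSC test because those values were normalized when deposited, and edgeR on counts recovered from them was an alternative. The authors' own genotype comparisons, with fold changes and p-values, were not used. Columns of values without a library numbered 0.

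Rounded HFSC counts were fitted with edgeR 4.0.16 (TMM factors, filterByExpr, quasi-likelihood F test) under R 4.3.3, and EpdSC values with limma 3.58.1 after log2(value + 1), which makes changes of low genes look smaller. P-values were adjusted by Benjamini-Hochberg over all genes tested, and calls needed an adjusted p under 0.05 and a fold change over 2. The SE of an edgeR fold was its size over the square root of F. With 2 libraries against 2 an exact permutation test cannot go under 0.333, and none was used. Exon lengths and overlaps came from a GENCODE annotation of the same build. Alternatives were DESeq2 1.42.0, limma-trend, other scalings, filters and pseudocounts, a replicate block, edgeR on recovered counts and each library left out. Figures were drawn with matplotlib 3.10.9 in Python 3.11.15.

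The members, pathway lists and marker lists were chosen with earlier results of these data known. Named pathway genes were every called gene, the 5 largest log2 fold changes per cell type among genes whose genotypes did not overlap and whose mean was 100 or more, and Fgf7, Fgf10, Etv4, Etv5, Spry4 and Dusp5. Likeness to Fgf18 was planned over all 8 libraries and was computed over 4, since the EpdSC table does not list Fgf18. Sdc1 in HFSCs, Frs3, Dusp7, Dusp4, Spred2, Nf1, Il17rd and the marker genes were named after their values were seen.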

Additional observations from a re-analysis of the deposited data

Results flagged for a closer look

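Fgfr2 lay on opposite sides of WT in the pair of cell types, with both KO-labelled libraries below both WT libraries in HFSCs (log2 fold change -0.35) and above both in the deposited EpdSC values (0.86). Neither passed the test. The EpdSC value was 0.14 with protein-coding totals, and on the shared RPM scale KO replicate 1 (533) lay below both WT libraries (560 and 854). Frs2 did the same, at -1.33 in HFSCs and 2.21 in EpdSCs, where its normalized values were 742 and 818 in WT, against 7521 and 1739 in the KO-labelled pair. The differences between cell types were not tested, because the tables were normalized separately.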

How the results depend on the processing

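Among the refits of single members, 198 kept direction and side of the threshold, 8 gained a call and 13 reversed. The HFSC total of 0 called genes became 51 with library totals, 2 with at least 10 counts in every library, 822 with DESeq2, 1407 with limma-trend, 231 with a replicate block and 132 to 9272 with 1 library left out, where a lone library is assumed to vary like the other group. Members called in HFSCs then numbered 0 to 4, the 4 in a fit that called 59.1% of all genes. The EpdSC total of 1518 became 0 with edgeR on recovered counts (5132 genes passed before adjustment, at the same fold) and 0 to 10376 with 1 library left out, members 0 to 2, the 2 where 63.9% of all genes were called. Of its calls 83.2% were lower, against 68.6% at a pseudocount of 10 and 67.9% with a prior that follows the mean. Reversed by scaling were Fgf1 with library totals (-0.52) and Fgfr1 with protein-coding totals (0.058) in HFSCs, and Spry1 in EpdSCs without mitochondrial and ribosomal RNA genes (-0.12) and with protein-coding totals (-0.29). With 1 library left out, log2 fold changes crossed 0 in HFSCs for Fgf2 (-7.55 to 0.0074), Fgfr1 (-0.43 to 0.073), Spry2 (-0.31 to 1.53) and Dusp6 (-1.57 to 1.40, with 0.37 without KO replicate 2), and in EpdSCs for Fgf1 (-0.089 to 3.87), Fgf2 (-5.13 to 0.42) and Fgfr3 (-0.33 to 0.11, with 0.030 without WT replicate 2). The low ends of Fgf2 rest on a library at 0 and are no bound. The cause was not tested.

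Deviations of same-numbered libraries correlated at -0.0502 in HFSCs and -0.0380 in EpdSCs. With so few libraries this cannot show whether same-numbered libraries share a preparation or only a number. The replicate block called 231 HFSC and 1271 EpdSC genes and changed no call among members, while Fgfbp1 in HFSCs gained one (adjusted p = 0.000973, edgeR). The median of all genes moved in HFSCs by -0.85 with library totals and by 0.20 with protein-coding totals, a scaling chosen after seeing the data, and in EpdSCs by -0.27, -0.53 and -0.70 with library totals, without mitochondrial and ribosomal RNA genes and with protein-coding totals. The HFSC dispersion was 0.823 with 2 libraries a group, which may limit what the edgeR fit could detect, and this was not tested.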

Other observations

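The other feedback inhibitors went both ways, 6 positive and 4 negative of 10 tested in HFSCs (median log2 fold change 0.17) and 4 positive and 4 negative of 8 in EpdSCs (median -0.63), with none called. Dusp7, an ERK phosphatase, lay above WT in HFSCs (216 and 392 against 720 and 468, log2 fold change 0.97, SE 0.43, adjusted p = 0.375, edgeR) and below it in EpdSCs (2920 and 2724 against 546 and 1842, log2 fold change -1.49, SE 0.78, adjusted p = 0.243, limma). Dusp4 lay above WT in HFSCs (4.90 and 3.96 against 49.3 and 19.5), and Spred2, an inhibitor of RAF activation, in EpdSCs (835 and 1409 against 12042 and 2800). Nf1, which switches RAS off, gave 465 and 491 normalized counts in WT HFSCs and 200 and 208 in the KO-labelled libraries (log2 fold change -1.23, SE 0.25, adjusted p = 0.143, edgeR), and 575 and 726 in WT EpdSCs against 96.8 and 217.7 (log2 fold change -2.15, SE 0.63, adjusted p = 0.111, limma). Il17rd, a membrane inhibitor of FGF receptors, gave 140 and 129 in WT HFSCs against 1.33 and 58.4 (log2 fold change -2.18, SE 1.70, adjusted p = 0.665, edgeR), and 144 and 148 in WT EpdSCs against 10.2 and 25.6 (log2 fold change -3.09, SE 0.64, adjusted p = 0.0673, limma). Frs3, a relative of Frs2, was at 15.2 and 12.5 in WT HFSCs and 0 in both KO-labelled libraries, at least 4.70-fold lower against a floor of 3 counts per library (adjusted p = 0.143, edgeR), and at 20.6 and 26.6 in WT EpdSCs against 160 and 37.1. None of these passed the test, and all were named after their values were seen.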
